A study of Mus musculus with 12 samples.

Results

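The Cyp3a cytochromes and PXR, the receptor that controls them, were followed as 9 genes of the 27912 in the deposited table: Cyp3a11, Cyp3a13, Cyp3a16, Cyp3a25, Cyp3a41a, Cyp3a41b, Cyp3a44, Cyp3a59 and Nr1i2, which encodes PXR. They were taken by gene symbol. Liver RNA came from male C57BL/6 mice, wild-type (WT) or lacking the chemokine receptor CCR1 (CCR1-KO), that were 8 weeks old when the diet began and ate a high-fat, high-cholesterol diet with cholate (the CL diet) for 12 weeks. WT replicates 62, 63 and 64 were compared with CCR1-KO replicates 65, 66 and 67, each a separate library of whole liver. Both groups ate the CL diet, so no value below comes from a chow-fed liver. The knockout is given by genotype only, with no promoter, cell type or clone named in the labels. The series has 12 samples, and the other 6 were not analysed here. The labels do not say in words that the replicates are separate animals, so p-values measure the spread between these samples.

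Cyp3a enzymes are heme proteins of the endoplasmic reticulum that oxidise steroids, bile acids and many drugs. PXR is a nuclear receptor that binds bile acids, steroids and drugs, pairs with RXR alpha on DNA and switches on Cyp3a genes, so that a rise of these ligands is met with more enzyme. In adult mouse liver Cyp3a11 is the best-known target, Cyp3a13 is also made in intestine, Cyp3a41a, Cyp3a41b and Cyp3a44 are known as female-predominant, and Cyp3a16 is known from fetal and young liver.

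The 8 Cyp3a genes lie on chromosome 5 (GRCm38). Of these, 7 stand within 677 kb, from 145436309 to 146113287, and Cyp3a13 lies apart from them by 7.51 Mb (137892932 to 137921619, minus strand). The close copies set how far single genes can be read. The longest coding transcripts of Cyp3a41a and Cyp3a41b were 99.7% identical, and 82.9% of the 150-base windows of Cyp3a41a, the length of a sequenced read, also occurred in Cyp3a41b. Between Cyp3a25 and Cyp3a59 the transcripts were 97.0% identical, but 0.702% of the windows of Cyp3a25 were shared. Cyp3a11 was 94.2% identical to Cyp3a41a and 93.3% to Cyp3a44 and shared no 150-base window with any Cyp3a gene. Cyp3a13 was the most distant, at 68.0% identity to Cyp3a11. Counts of Cyp3a41a and Cyp3a41b are therefore uncertain as single genes, because the sources used here do not say how reads matching several genes were assigned.

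Promoters are alike in the same pairs. The bases before the RefSeq start sites (GRCm38.p6) are shown for Cyp3a11, Cyp3a25 and Cyp3a59, whose reads were lower in CCR1-KO, for Cyp3a13, whose reads were not, and for the near-identical Cyp3a41a and Cyp3a41b. Bases inside the gene models of the deposited table were left out, which shortens Cyp3a11 to 140 bases. Capitals mark exact matches, on either strand, to the nuclear receptor hexamers AGGTCA and AGTTCA and to the HNF4-type cores CAAAGGTCA and CAAAGTCCA, the first of which contains AGGTCA.
Cyp3a11 (chr5:145879965-145880104, minus strand): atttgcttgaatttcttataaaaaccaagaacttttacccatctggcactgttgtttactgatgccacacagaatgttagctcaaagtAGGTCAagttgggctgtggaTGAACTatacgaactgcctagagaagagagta
Cyp3a25 (chr5:146009619-146009868, minus strand): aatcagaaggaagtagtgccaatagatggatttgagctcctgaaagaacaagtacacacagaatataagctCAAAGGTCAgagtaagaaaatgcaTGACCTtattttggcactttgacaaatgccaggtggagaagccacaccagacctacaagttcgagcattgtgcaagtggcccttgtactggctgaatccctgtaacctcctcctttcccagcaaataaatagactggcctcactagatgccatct
Cyp3a59 (chr5:146079008-146079256, plus strand): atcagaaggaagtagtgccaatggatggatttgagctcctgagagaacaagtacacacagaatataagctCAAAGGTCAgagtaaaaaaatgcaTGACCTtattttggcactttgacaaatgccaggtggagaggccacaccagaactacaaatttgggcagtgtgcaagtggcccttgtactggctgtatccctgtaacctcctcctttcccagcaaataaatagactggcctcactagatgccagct
Cyp3a13 (chr5:137921620-137921869, minus strand): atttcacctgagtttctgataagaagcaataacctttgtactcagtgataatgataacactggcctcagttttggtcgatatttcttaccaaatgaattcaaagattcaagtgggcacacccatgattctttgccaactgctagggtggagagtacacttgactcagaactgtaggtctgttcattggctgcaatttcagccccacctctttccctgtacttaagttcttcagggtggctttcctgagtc
Cyp3a41a (chr5:145720137-145720386, minus strand): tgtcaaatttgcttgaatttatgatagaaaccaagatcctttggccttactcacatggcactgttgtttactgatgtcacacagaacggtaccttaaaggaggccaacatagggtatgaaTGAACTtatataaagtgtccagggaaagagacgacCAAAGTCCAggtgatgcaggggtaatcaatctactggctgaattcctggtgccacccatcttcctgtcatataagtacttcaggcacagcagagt
Cyp3a41b (chr5:145584731-145584980, minus strand): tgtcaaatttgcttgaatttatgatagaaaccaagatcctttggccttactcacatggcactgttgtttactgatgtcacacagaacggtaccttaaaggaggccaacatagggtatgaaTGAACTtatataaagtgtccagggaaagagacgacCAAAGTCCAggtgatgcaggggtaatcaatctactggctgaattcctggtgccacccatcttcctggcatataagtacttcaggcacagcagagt
The 250 bases before the starts of Cyp3a25 and Cyp3a59 were 94.8% identical, those of Cyp3a41a and Cyp3a41b 99.6%, and those of Cyp3a11 and Cyp3a25 50.5%. Cyp3a25 and Cyp3a59 both carried CAAAGGTCA, a match found in 0.426% of 32851 RefSeq promoter windows of this length. In Cyp3a25 it began 179 bases before the start and in Cyp3a59 180 bases before it, each followed by a second AGGTCA hexamer on the other strand. Cyp3a11 held AGGTCA 162 bases and AGTTCA, as its reverse TGAACT, 142 bases before its start, and CAAAGTCCA (0.384% of windows) 109 bases before it, outside the stretch printed. Cyp3a41a and Cyp3a41b, whose mean CPM was not lower in CCR1-KO, also held TGAACT, 130 bases before their starts, and CAAAGTCCA, 95 bases before them. The single hexamers are common, AGGTCA in 4607 and AGTTCA in 3891 of the 32851 windows. Cyp3a13 and Nr1i2 had no match to any of these motifs in the 250 bases. Direct repeats of the hexamers spaced by 3 or 4 bases and everted repeats spaced by 6 or 8, the pair arrangements that PXR is known to bind, and the STAT5-type TTCNNNGAA were searched as well. Spelled with AGGTCA or AGTTCA in either place, the spacings of 3 and 4 occur in 0.0122% and 0.0244% of windows, those of 6 and 8 in 0.00913% and 0.0122%, and TTCNNNGAA in 7.02%. None of these matched in any of the 9 promoters, which says only that these letters are not in these windows. The motifs were chosen after the promoters had been read.

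**Figure D1:**
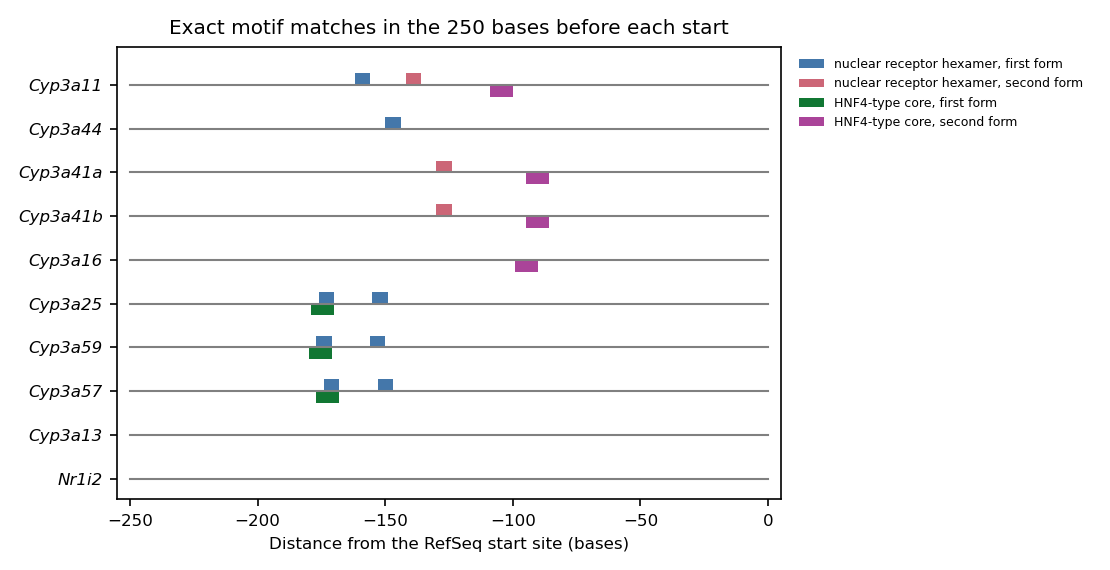
Exact motif matches (coloured blocks) along the 250 bases before the RefSeq start of each Cyp3a gene and Nr1i2, with distance from the start in bases on the x axis. Cyp3a25, Cyp3a59 and Cyp3a57 share 1 layout, Cyp3a11 has another, and Cyp3a13 and Nr1i2 have no match. Cyp3a41a and Cyp3a41b share the AGTTCA hexamer and the CAAAGTCCA core with Cyp3a11.

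The 6 libraries held 74699391 to 79154085 gene reads. Levels are given as CPM, a gene's reads scaled to library size with TMM factors that bring libraries to a common level, so that 1 read was worth 0.0113 to 0.0167 CPM. Ccr1 itself had 100, 23 and 123 reads in WT and 11, 4 and 14 in CCR1-KO, lower in every CCR1-KO library, though its log2 fold change of -2.72 ± 0.76 (SE) had an adjusted p of 0.075. Of 2 gene models named Nnt, a mitochondrial enzyme whose deletion is known to separate C57BL/6 substrains, 1 had 1627 to 2640 reads in WT and 0 in every CCR1-KO library. The other model had 2977 to 3820 reads in WT and 8626 to 10917 in CCR1-KO (log2 fold change 1.84, adjusted p = 0.0029). Ccr1 genotype and genetic background cannot be told apart in these libraries, which differ at Nnt as well. Over all genes, 1141 of 17729 tested, or 6.44%, passed edgeR's quasi-likelihood test at an adjusted p under 0.05, with 2.83% higher and 3.61% lower in CCR1-KO. These were 501 higher and 640 lower genes, a split that became 219 and 857 with no scaling factors and 223 and 1088 with limma on FPKM. The count was 2419 without CCR1-KO replicate 65 and between 102 and 395 without any other single library. Values below are CPM, as mean ± SD with n = 3 in each group, and differences are log2 fold changes ± SE, CCR1-KO over WT, with p adjusted over all 17729 genes.

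Cyp3a11, the main Cyp3a enzyme of adult mouse liver (ENSMUSG00000056035, chromosome 5, 145854426 to 145879964, minus strand), was the most abundant member in WT and was lower in all 3 CCR1-KO libraries. It had 1495, 1456 and 1282 CPM in WT replicates 62, 63 and 64 and 750.2, 213 and 226 in CCR1-KO replicates 65, 66 and 67. The groups did not overlap, and CCR1-KO replicate 65 lay between WT and the other CCR1-KO libraries. Means were 396 ± 307 in CCR1-KO against 1411 ± 113 in WT, or 28.1% of WT. The log2 fold change of -1.83 ± 0.47 did not pass over all genes (adjusted p = 0.062). Without CCR1-KO replicate 65 it was -2.69 (adjusted p = 5.8e-04), and without any other single library its adjusted p was at least 0.14. In whole liver, fewer cells of a type and less RNA per cell cannot be told apart.

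Cyp3a59 (ENSMUSG00000061292, chromosome 5, 146079257 to 146113287, plus strand), the close copy of Cyp3a25, was the 1 Cyp3a gene that passed. It had 36.2, 45.4 and 42.4 CPM in WT and 15.8, 4.58 and 4.75 CPM in CCR1-KO replicates 65, 66 and 67. All CCR1-KO libraries were below all WT libraries, again with replicate 65 nearest to WT. It fell to 8.39 ± 6.45 from 41.3 ± 4.69 CPM (log2 fold change -2.30 ± 0.47, adjusted p = 0.032). The call was kept without CCR1-KO replicate 65 (log2 fold change -3.15, adjusted p = 2.9e-04) and lost without each of the other 5 libraries (adjusted p 0.083 to 0.11).

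Cyp3a25 (ENSMUSG00000029630, chromosome 5, 145977194 to 146009618, minus strand), an enzyme of adult liver that also oxidises steroids, differed less. Its level was 485, 599 and 453 CPM in WT and 437, 268 and 292 CPM in CCR1-KO. The groups did not overlap, but CCR1-KO replicate 65 came within a few percent of WT replicate 64. The log2 fold change of -0.63 ± 0.21 did not pass (adjusted p = 0.13). Without CCR1-KO replicate 65 it was -0.87 (adjusted p = 0.019).

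Like Cyp3a41a and Cyp3a41b of the cluster, which rest on few reads, Cyp3a13 (ENSMUSG00000029727) was not lower on average in CCR1-KO. It had 134, 133 and 166 CPM in WT and 174, 182 and 203 CPM in CCR1-KO, so each CCR1-KO library was slightly above the highest WT library. The difference did not pass (log2 fold change 0.37 ± 0.14, adjusted p = 0.15). It rests on scaling, since with no scaling factors it was 0.06 and with limma on deposited FPKM 0.07, settings in which the median of all genes moved to -0.30 and -0.23.

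**Figure D2:**
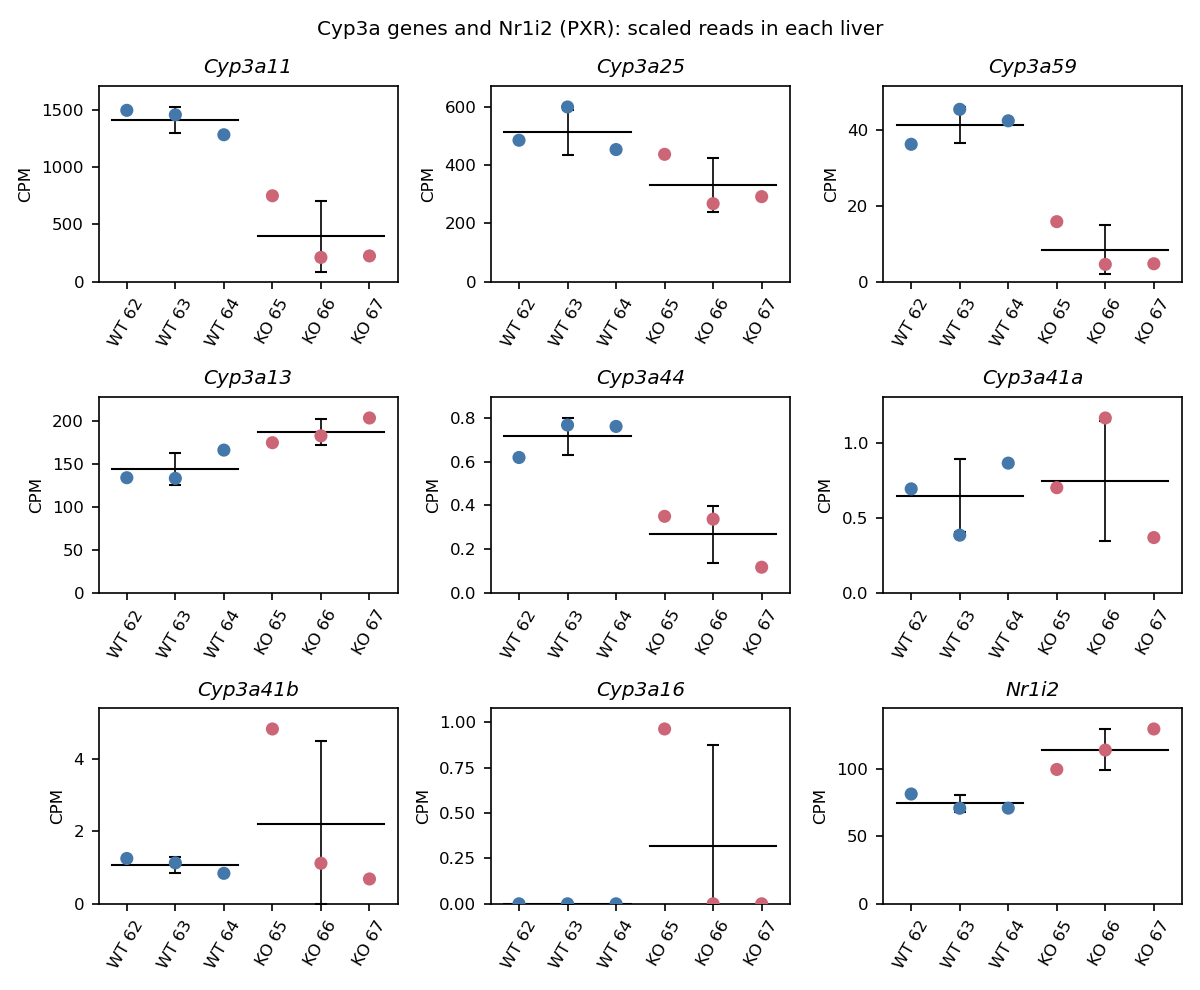
CPM of each Cyp3a gene and Nr1i2 (y axis, from 0, a scale of its own per panel) in the 6 livers, with points for libraries, lines for group means and bars for SD, clipped at 0 (n = 3). For Cyp3a11 and Cyp3a59 the CCR1-KO points lie below the WT points with replicate 65 highest among them, and for Nr1i2 they lie above.

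The genes known as female-predominant were near the lower end of detection in these male livers, and did not move as 1 group. Cyp3a44 (ENSMUSG00000054417, chromosome 5, 145773983 to 145805874, minus strand) had 51, 68 and 67 reads in WT and 28, 22 and 7 in CCR1-KO. No CCR1-KO library reached a WT library, yet the log2 fold change of -1.40 ± 0.51 did not pass (adjusted p = 0.14). Cyp3a41a (ENSMUSG00000075551, chromosome 5, 145694049 to 145720136, minus strand) had 57, 34 and 76 reads in WT and 56, 76 and 22 in CCR1-KO, with full overlap (adjusted p = 0.85). Cyp3a41b (ENSMUSG00000075552, chromosome 5, 145558664 to 145584730, minus strand) had 103, 100 and 74 reads in WT and 386, 73 and 41 in CCR1-KO.

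The 386 reads of Cyp3a41b belong to CCR1-KO replicate 65, with an exact 95% counting interval of 348 to 426, far above the other 5 libraries. The log2 fold change of 1.05 ± 0.67 (adjusted p = 0.38) turned to -0.25 without that library. Summed over the near-identical Cyp3a41a and Cyp3a41b, WT had 160, 134 and 150 reads and CCR1-KO 442, 149 and 63, so the excess in replicate 65 did not depend on how reads were divided between them. Cyp3a16 (ENSMUSG00000038656, chromosome 5, 145436309 to 145469723, minus strand) had 77 reads in the same library, with an interval of 60.8 to 96.2, and 0 reads in each of the other 5. A count of 0 allows up to 3 reads, or between 0.0339 and 0.0502 CPM. Cyp3a16 did not pass the filter on low counts and was not tested. In CCR1-KO replicate 65, then, reads of Cyp3a16 and Cyp3a41b were the highest of the 6 libraries, while those of Cyp3a44, a copy 91.7% identical to Cyp3a16, were below every WT library.

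Of the 8 Cyp3a genes, 7 passed the filter and 1, Cyp3a59, passed the test, a count of 1 to be read against 6.44% of all genes. Groups did not overlap for 5 of the 7 tested (Cyp3a11, Cyp3a13, Cyp3a25, Cyp3a44 and Cyp3a59), 4 of them lower in CCR1-KO, where 32.6% of all tested genes had groups that did not overlap and 17.4% were of that kind and lower. The table has 2 further genes of this name. Cyp3a57 had 25, 33 and 35 reads in WT and 12, 0 and 0 in CCR1-KO (adjusted p = 0.21), and the pseudogene Cyp3a63-ps had 4 reads in WT replicate 64 and 0 elsewhere.

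Summed reads do not depend on how reads matching several copies were divided between them. They would still change if such reads were dropped or counted more than once, which the sources used here do not say. The 8 Cyp3a genes together had 2153, 2236 and 1946 CPM in WT and 1384, 670.0 and 726 CPM in CCR1-KO. Every CCR1-KO sum lay below every WT sum, and the mean was 927 ± 397 against 2111 ± 149 CPM, or 43.9% of WT (log2 fold change -1.19 ± 0.28, given without a p since the members were chosen with results known). As a share of all reads this was 0.227%, 0.250% and 0.227% in WT and 0.147%, 0.0585% and 0.0565% in CCR1-KO. Summed deposited FPKM was 603 ± 44.2 in WT and 261 ± 131 in CCR1-KO. Nearly all of it came from Cyp3a11, Cyp3a13, Cyp3a25 and Cyp3a59, with 923 ± 394 against 2109 ± 149 CPM. Cyp3a16, Cyp3a41a, Cyp3a41b and Cyp3a44 together had 3.54 ± 2.95 CPM in CCR1-KO and 2.44 ± 0.143 CPM in WT, where CCR1-KO replicate 65 alone had 6.84 CPM.

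The make-up of the family differed along with its total. Cyp3a11 gave 69.5%, 65.1% and 65.9% of Cyp3a reads in WT, 54.2% in CCR1-KO replicate 65 and 31.7% and 31.1% in replicates 66 and 67. The share of Cyp3a13 was 6.21%, 5.95% and 8.52% in WT and 12.6%, 27.2% and 27.96% in CCR1-KO. Cyp3a25 made up 22.5% to 26.8% of the reads in WT and 31.6%, 40.0% and 40.2% in CCR1-KO, while Cyp3a59 went from between 1.68% and 2.18% to 1.14%, 0.684% and 0.654%.

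**Figure D3:**
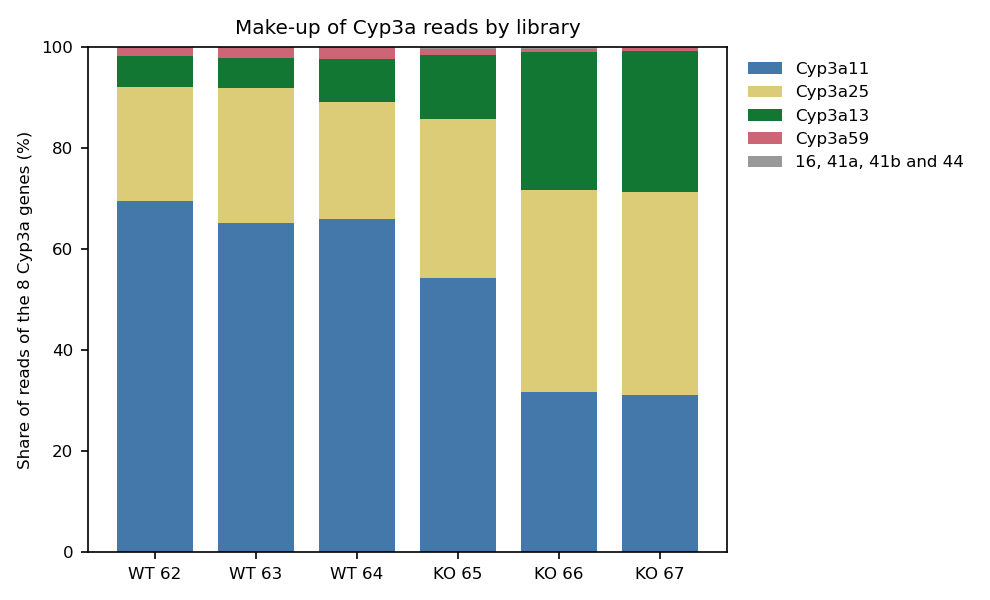
Share of the reads of the 8 Cyp3a genes (y axis, percent) that each gene held in each library, as stacked bars. Cyp3a11 holds over 65% in each WT liver and 31.1% and 31.7% in CCR1-KO replicates 67 and 66, with replicate 65 between.

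Per length, the order of the members differed too. By deposited FPKM in WT, Cyp3a11 (281 ± 11.9) and Cyp3a25 (250 ± 37.2) did not differ beyond their spread, followed by Cyp3a13 (49.8 ± 8.65), Nr1i2 (29.5 ± 1.32) and Cyp3a59 (21.0 ± 3.07). Cyp3a41b (0.523 ± 0.0814), Cyp3a44 (0.370 ± 0.0529) and Cyp3a41a (0.320 ± 0.130) came after them, and Cyp3a16 was listed at 0. Cyp3a41b lay above Cyp3a44 in every WT library, while Cyp3a44 and Cyp3a41a did not differ beyond their spread. In CCR1-KO Cyp3a25 led with 135 ± 58.3, ahead of Cyp3a11 (69.0 ± 63.3) and Cyp3a13 (51.7 ± 4.46), which overlapped. In CCR1-KO replicates 66 and 67 Cyp3a13, at 49.2 and 49.1 FPKM, was above Cyp3a11, at 33.3 and 31.7 FPKM.

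Ratios of FPKM within a library do not depend on scaling between libraries. Cyp3a25 over Cyp3a11 was 0.793, 1.006 and 0.864 in WT and 1.42, 3.08 and 3.16 in CCR1-KO, higher in all 3 CCR1-KO libraries (exact two-sided permutation test of the log2 ratio, p = 0.10, the smallest that 3 against 3 libraries allow). Cyp3a59 over Cyp3a25 was 0.0777, 0.0789 and 0.0973 in WT and 0.0377, 0.0177 and 0.0169 in CCR1-KO (exact p = 0.10). Cyp3a59 over Cyp3a11 differed less, at 0.0616, 0.0793 and 0.0841 in WT and between 0.0534 and 0.0546 in CCR1-KO (exact p = 0.10). The groups did not overlap in either ratio of Cyp3a59. The part of promoter sequence in these ratios was not tested. Cyp3a13 over Cyp3a11 was 0.154, 0.157 and 0.223 in WT and 0.400, 1.48 and 1.55 in CCR1-KO (exact p = 0.10). All these ratios were chosen after the values were seen. A ratio shows unequal difference, not which gene stayed level.

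Nr1i2, the gene of PXR (ENSMUSG00000022809, chromosome 16, 38248323 to 38294824, minus strand), was higher where most Cyp3a reads were lower. It had 81.2, 70.7 and 70.8 CPM in WT replicates 62, 63 and 64 and 99.4, 114 and 129 CPM in CCR1-KO replicates 65, 66 and 67. The groups did not overlap, and Nr1i2 rose to 114 ± 15.0 from 74.3 ± 6.06 CPM (log2 fold change 0.62 ± 0.14, adjusted p = 0.040). By deposited FPKM it was 30.8, 28.2 and 29.5 in WT and 37.6, 35.6 and 36.2 in CCR1-KO, a narrower gap that did not overlap either. The call depends on scaling, with a log2 fold change of 0.30 and an adjusted p of 0.22 with no scaling factors and of 0.16 with limma on FPKM. It was kept without CCR1-KO replicate 65 (adjusted p = 0.017) and lost without each of the other 5 libraries (adjusted p 0.087 to 0.16).

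**Figure D4:**
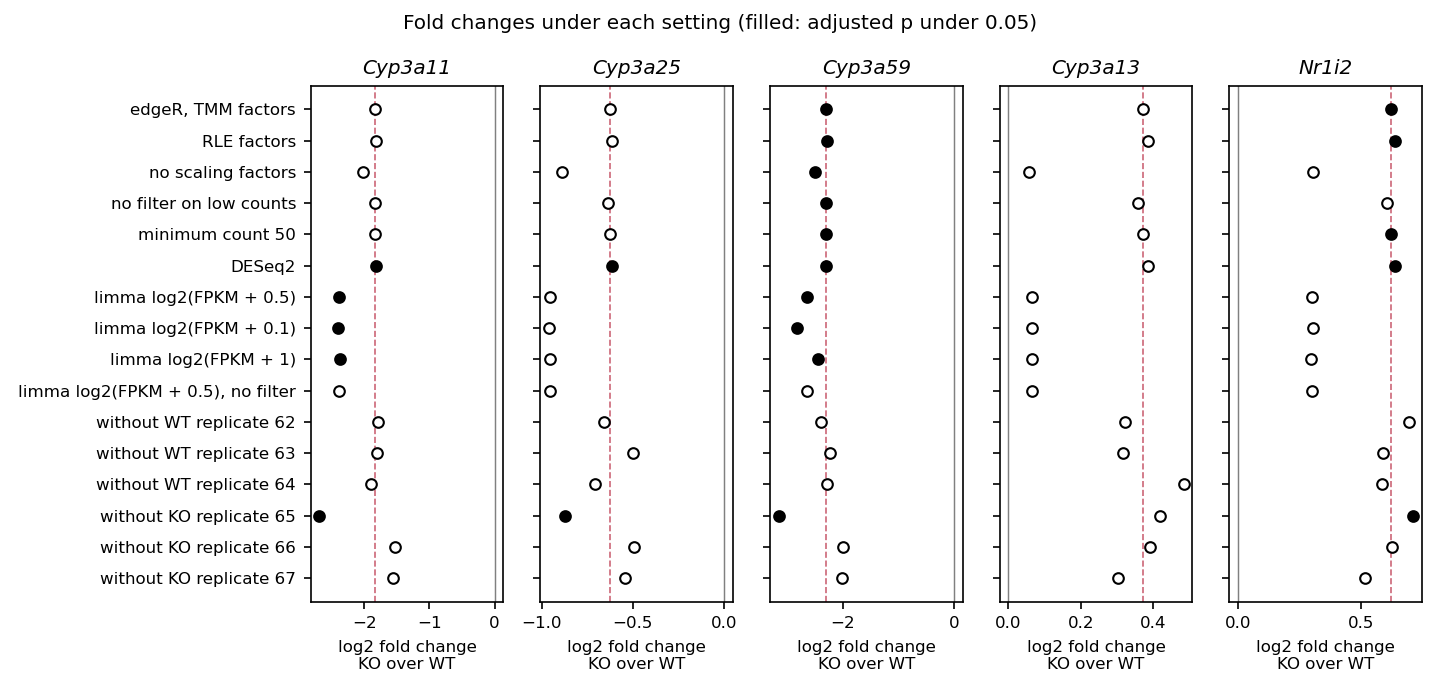
Log2 fold change of CCR1-KO over WT (x axis) of 5 members under edgeR with TMM factors and each alternative (y axis), with filled points where the adjusted p was under 0.05 and the dashed line at the TMM value. Cyp3a11, Cyp3a25 and Cyp3a59 stay below 0 and Nr1i2 above 0 in every setting drawn, while filled points differ between settings.

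Among 15 tested partners and co-regulators of PXR, 3 rose and 0 fell, while 12 missed the threshold, beside 2.83% and 3.61% of all genes, with a median log2 fold change of 0.36 where that of all genes was 0.0017. Rxra, the partner on DNA, had 332, 367 and 387 CPM in WT and 388, 518 and 481 CPM in CCR1-KO (log2 fold change 0.35 ± 0.15, adjusted p = 0.20). The chaperones Hsp90aa1 (log2 fold change 1.34 ± 0.23, adjusted p = 0.019) and Hsp90ab1 (0.84 ± 0.15, adjusted p = 0.023), of the complex that holds unliganded receptors in the cytoplasm, rose. Foxo1, an insulin-regulated factor that can bind PXR, rose by a log2 fold change of 1.05 ± 0.14 (adjusted p = 0.011). Foxo1 passed in 4 of the 6 fits that left out a library, Hsp90aa1 in 2 and Hsp90ab1 in 1. Hsp90ab1 also lost its call with no scaling factors (0.52, adjusted p = 0.082) and with each limma fit on FPKM (adjusted p 0.068 to 0.13). DESeq2 called 4 of the 15 higher and 1 lower, beside 1182 higher and 1366 lower among all 17729 genes.

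The listed PXR target genes outside Cyp3a were mostly lower where they passed the threshold. Among 21 such genes 8 fell and 1 rose, while 12 missed the threshold (median log2 fold change -0.89), beside 3.61% and 2.83% of all genes. Of the 21 log2 fold changes, 13 were below 0. Alas1, also a PXR target, was counted with the heme enzymes below, and it rose (log2 fold change 1.22, adjusted p = 0.027). The glutathione transferase Gstm3 had 73.3, 43.5 and 54.7 CPM in WT and 7.29, 6.12 and 5.67 CPM in CCR1-KO (log2 fold change -3.17 ± 0.22, adjusted p = 0.0022). Its relatives Gstm2 (-1.69 ± 0.21, adjusted p = 0.0098) and Gstm1 (-1.42 ± 0.21, adjusted p = 0.013) fell as well, and all of these have close paralogs. Gstm2 and Gstm3 passed without each single library in turn, Gstm1 in 4 of those 6 fits. The carboxylesterase Ces2a went the other way, from 69.1, 82.3 and 69.8 to 130.1, 128 and 142 CPM (log2 fold change 0.85 ± 0.12, adjusted p = 0.013). It passed in 3 of the 6 fits that left out a library, and lost its call with no scaling factors (0.55, adjusted p = 0.090) and with each limma fit on FPKM (adjusted p 0.067 to 0.11).

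The other 5 targets past the threshold, named after their values were seen, were the organic anion carrier Slco1a4 (log2 fold change -1.95), the drug pump Abcb1a (-1.62), Gsta1 (-4.24), the aldehyde dehydrogenase Aldh1a7 (-1.09) and the fatty acid carrier Cd36 (-2.66). Slco1a4, a classic PXR target, had 67.8, 127 and 95.6 CPM in WT and 34.9, 26.8 and 13.6 CPM in CCR1-KO (adjusted p = 0.024). Gsta1 and Cd36 each passed in 1 of the 6 fits that left out a library, and Slco1a4 and Abcb1a in 2. Over the 4 lists of PXR partners, PXR targets, P450 electron and heme supply, and other factors, 5 genes rose and 10 fell, against 11 and 16 without CCR1-KO replicate 65 and 0 and 2 without WT replicate 63. Many of the targets also answer to receptors and factors other than PXR.

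Enzymes that feed electrons and heme to P450s split. Among 14 such genes 1 rose and 2 fell, while 11 missed the threshold (median log2 fold change 0.0087), again beside 2.83% and 3.61% of all genes. Alas1, the first enzyme of heme synthesis and itself a PXR target, had 483, 453 and 418 CPM in WT and 688, 1231 and 1235 CPM in CCR1-KO (log2 fold change 1.22 ± 0.23, adjusted p = 0.027). Por, the P450 reductase, had 283, 183 and 173 CPM in WT and 303, 787 and 932 CPM in CCR1-KO, with no overlap, but did not pass (log2 fold change 1.66 ± 0.40, adjusted p = 0.051). Cyb5b, a cytochrome b5 of the mitochondrial outer membrane, fell by 0.87 ± 0.14 on the log2 scale (adjusted p = 0.018), and the reductase Cyb5r3 fell by 0.52 ± 0.12 (adjusted p = 0.048). Alas1, Cyb5b and Cyb5r3 each passed in 1 of the 6 fits that left out a library.

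Other receptors and factors that control Cyp3a did not pass by edgeR's test in any of 18 cases (median log2 fold change 0.13), beside 6.44% of all genes. At an unadjusted p under 0.05 there were 4, and DESeq2 called 2, where it called 2548 of all 17729 genes. How many of all genes had an unadjusted p under 0.05 was not counted, but the share is above 6.44%, so the 4 cannot be read as an excess. Nr1i3, which encodes CAR, the receptor closest to PXR, had 560.5, 484 and 331 CPM in WT and 686, 395 and 449 CPM in CCR1-KO (adjusted p = 0.77). Hnf4a, a hepatocyte factor that Cyp3a promoters need, had 481, 432 and 446 CPM in WT and 572, 1157 and 858 CPM in CCR1-KO (log2 fold change 0.93 ± 0.24, adjusted p = 0.063). These 2 were named after their values were seen.

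**Figure D5:**
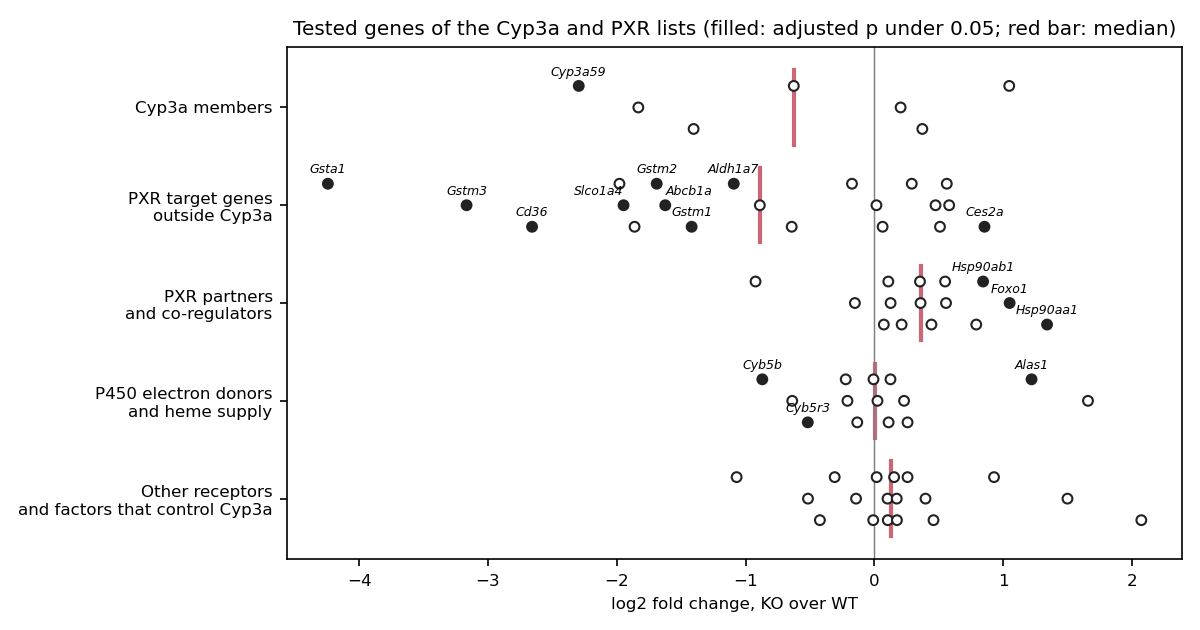
Log2 fold change of CCR1-KO over WT (x axis) of each tested gene in the Cyp3a and PXR lists (y axis), with filled points and names where the adjusted p was under 0.05 and red bars for list medians. The medians are -0.63 for Cyp3a and -0.89 for other PXR targets, against 0.36 for partners and co-regulators.

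Because part of the family is known for sex bias, sex-biased liver genes outside it were counted as well. Of 12 female-predominant genes tested, 4 fell and 0 rose (Cyp2b13, Cyp2a4, Hao2 and Abcd2, log2 fold changes -3.66, -3.70, -5.49 and -2.49). Of 12 male-predominant genes, 6 rose and 0 fell, among them Hsd3b5 (8.11), Slco1a1 (4.09), Cyp7b1 (3.46) and Cyp2d9 (1.40). Of all genes, 2.83% rose and 3.61% fell. Cyp2a4, Hao2, Hsd3b5 and Slco1a1 passed without each single library in turn, Cyp2b13 in 5 of those 6 fits, Abcd2 in 3, and Cyp7b1 and Cyp2d9 in 2. In the list of 12 pericentral genes, the zone where Cyp3a11 is known to be strongest, Cyp27a1 rose (0.89), Rhbg fell (-0.79) and 10 did not pass by edgeR. DESeq2 called 4 of the 12 higher and 2 lower, beside 1182 higher and 1366 lower among all 17729 genes. Cyp27a1 passed in 2 and Rhbg in 1 of the 6 fits that left out a library, and Cyp27a1 lost its call with no scaling factors (adjusted p = 0.084) and with each limma fit.

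Marker levels of the cell types stood as follows beside these differences. The summed CPM of 7 hepatocyte markers was 73119 to 86820 in WT and 70261 to 88673 in CCR1-KO, with 2 of 7 higher. Alb made up most of each sum, at 55393 to 67345 CPM in WT and 49835 to 61482 in CCR1-KO. The 2 higher markers were Tat (log2 fold change 1.80, adjusted p = 0.015) and Cps1 (1.37, adjusted p = 0.036). Stellate cell markers were at 362 to 772 in WT and 181 to 200 in CCR1-KO, with 5 of 6 lower, and bile duct markers at 118 to 190 and 42.2 to 49.0, with 1 of 5 lower. That 1 was Spp1, which made up most of the bile duct sum, at 134, 111 and 180 CPM in WT and 43.8, 37.1 and 44.5 in CCR1-KO. Each other bile duct marker was at most at 3.69 CPM in any library and did not pass. Of all genes, 2.83% were higher and 3.61% lower by edgeR, and DESeq2 called 2548 of 17729. Macrophage markers were at 206 to 294 and 139 to 310, and endothelial markers at 105 to 147 and 101 to 137, with 0 past the threshold in either list by edgeR (1 and 0 at an unadjusted p under 0.05, and 1 and 0 by DESeq2). T and B cell markers reached at most 4.26 in WT and 2.46 in CCR1-KO, and neutrophil markers at most 0.932 and 1.07. Of the intestine markers, Vil1 and Muc2 were at most at 0.250 CPM in any library, and Fabp2 was at 143 to 161 CPM in WT and 81.9 to 138 in CCR1-KO (adjusted p = 0.16). Of the pancreas markers, Cpa1, Prss2 and Amy2a5 were not in the deposited table. Cela1, the 1 tested gene of that list, rose (log2 fold change 1.22, adjusted p = 0.030), from between 7.66 and 9.96 CPM in WT to between 13.6 and 26.4 in CCR1-KO. The part of any of these in the Cyp3a values was not tested.

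Genes next to the Cyp3a genes were counted by the same test. Of 16 tested genes that start within 500 kb of a Cyp3a gene of the cluster, 0 passed edgeR's test (2 had an unadjusted p under 0.05, and DESeq2 called 0), and log2 fold changes ran from -0.40 (Arpc1b) to 0.47 (Wasf3). Near Cyp3a13, 3 of 45 rose (Tfr2, Gjc3 and Gm15502) and 1 fell (Pcolce, a collagen-processing factor), a share near the 6.44% of all genes. At an unadjusted p under 0.05 there were 10, and DESeq2 called 7, where it called 2548 of all 17729 genes. The share of all genes with an unadjusted p under 0.05 was not counted but is above 6.44%. The unadjusted counts near Cyp3a13 and near the cluster therefore cannot be read as an excess. Tfr2 and Gjc3 each passed in 1 of the 6 fits that left out a library, Gm15502 in 2 and Pcolce in 4, and Tfr2 and Gjc3 lost their calls with no scaling factors. Gm15502 (137896752 to 137896959) lies inside the gene model of Cyp3a13. Whether its reads are separate from those of Cyp3a13 was not tested.

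Likeness was measured over the 6 libraries as the root mean square difference of centred log2 CPM, among the other genes with a mean FPKM of at least 1 (10332, or 10333 for Cyp3a41a and Cyp3a41b, which are below that level themselves). Closest to Cyp3a11 were the ecto-nucleotidase Nt5e (0.117), the predicted gene Gm11843 (0.124) and malic enzyme Me1 (0.166), where the spread of Cyp3a11 itself was 1.20. Nt5e passed (log2 fold change -1.895, adjusted p = 0.043) and Me1 did not (-1.69, adjusted p = 0.071). Closest to Cyp3a59 were the transporter Slc22a29 (0.162), Gm11843 (0.203) and Cyp3a11 (0.232). For Nr1i2 the closest were Kmt2d (0.0510), Kdm4b (0.0518) and Gm4788 (0.0529), and for Cyp3a25 Klhl36 (0.0770), Gyg (0.0863) and Tmem64 (0.112). For Cyp3a41a they were Serpina3n (0.127), 4933440N22Rik (0.136) and Med26 (0.147). The spread of Cyp3a41a itself was 0.331, on only 22 to 76 reads a library, so these distances say little. For Cyp3a41b, where replicate 65 stood highest, they were Igkc (0.204), Saa3 (0.258) and Slc45a3 (0.295), at larger distances.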

How the data were processed

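Polyadenylated liver RNA was sequenced as pairs after dUTP strand marking, per the labels' protocols. The tools edgeR, DESeq2, StringTie 2.1.6, HISAT2 2.2.1 and cutadapt 1.9 are named per the submitters' processing notes, without roles. The deposited counts are whole reads per gene, and the deposited FPKM values are scaled by the authors to gene length and library size, per the file headers. The sources used here do not say whether strand entered the counting. The notes name GRCh38, but identifiers and coordinates are of mouse, and all Cyp3a genes and Nr1i2 had the same start, end and strand in GENCODE M21 (GRCm38).

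Counts were tested with edgeR 4.0.16 (R 4.3.3; filterByExpr with minimum count 10 and minimum total 15, TMM factors, glmQLFit and glmQLFTest, Benjamini-Hochberg adjustment over 17729 genes, threshold 0.05). SE was taken as the size of the log2 fold change divided by the root of F. Summed Cyp3a genes replaced their members in a repeat of the fit. Their planned test is not reported, because the members and gene lists were chosen with earlier results of these data known. Genes were named by a rule: all members, list genes past the threshold (the 4 of smallest p where more than 5 passed), and the 3 most alike per member, which for Cyp3a13 and Cyp3a44 are not reported here. Male- and female-predominant, pericentral and marker lists came from general knowledge. Alternatives were DESeq2 1.42.0, limma 3.58.1 on log2(FPKM + pseudocount), other filters and factors, and leaving out each library. The test was tried on counts simulated with edgeR's fitted spread and known changes. There edgeR recovered 42% of 2-fold and 91% of 4-fold changes, with 14 false among 147 calls. DESeq2 made 58 false among 223 calls, so calls of both tools are to be read with their false calls in mind. No simulated library stood apart over many genes, as CCR1-KO replicate 65 did here, so these rates may not hold for these data. Intervals cover counting error only. All 9 members matched RefSeq promoters.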

Additional observations from a re-analysis of the deposited data

How the results depend on the processing

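No paired analysis was possible because the groups share no replicate number. Cyp3a11 passed the threshold with DESeq2 (log2 fold change -1.82) and with limma on log2(FPKM + 0.5), + 0.1 and + 1 (-2.39, -2.40 and -2.38), and Cyp3a25 with DESeq2 (-0.61). Cyp3a59 lost its call with limma and no filter (-2.63). Nr1i2 lost it with no scaling factors (0.30), no filter on low counts (0.61) and limma on FPKM with pseudocounts 0.5, 0.1 and 1 or no filter (0.30, 0.30, 0.30 and 0.30). Of members that never passed, Cyp3a41a turned to -0.082 with no scaling factors and -0.046 with limma and no filter. Nr1i3 turned to -0.094 with no scaling factors and -0.16 with each limma fit.

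Leaving out each library in turn gave -2.69 to -1.53 for Cyp3a11, -0.87 to -0.49 for Cyp3a25, -3.15 to -2.0 for Cyp3a59, 0.52 to 0.71 for Nr1i2, -0.27 to 0.52 for Cyp3a41a, -0.25 to 1.47 for Cyp3a41b, -0.36 to 0.96 for the sum of Cyp3a16, Cyp3a41a, Cyp3a41b and Cyp3a44, and -0.12 to 0.33 for Nr1i3. Genes past the threshold numbered 1141, 735 with no filter on low counts, 2548 with DESeq2, 239 with limma and no filter, and 102 to 2419 without 1 library. In the 4 PXR and P450 lists, 5 rose and 10 fell. DESeq2 gave 8 and 16, limma on FPKM 3 higher at each pseudocount, limma with no filter 0 and 4, and leaving out 1 library 0 to 11 higher and 2 to 16 lower. The causes were not tested. With 3 libraries a group and CCR1-KO replicate 65 apart from the other 2, adjusted p-values near the threshold moved with most choices. Cyp3a16, Cyp3a41a, Cyp3a41b and Cyp3a44 rest on few reads.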
